A study of Mus musculus with 12 samples.

Results

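The miR-26 family comprises 5 mature microRNAs, counted here at 6 loci of the deposited table, out of 1906 mature names at 2044 loci. They were taken by name: mmu-miR-26a-5p (1041819 counts over all livers), mmu-miR-26b-5p (283236), mmu-miR-26b-3p (1032), mmu-miR-26a-2-3p (642) and mmu-miR-26a-1-3p (25); the species prefix is dropped below. Small RNA had been sequenced from whole livers of 8-week-old CD1 mice (Crl:CD1(ICR), an outbred stock), 6 males and 6 females, untreated as far as the labels say, to find microRNAs that differ between the sexes. Each liver gave 1 library. The labels give no litter, cage or sequencing run, and p-values here reflect how these particular livers vary.

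A microRNA hairpin is cut into a duplex, and usually 1 arm, the guide, is loaded into Argonaute and represses messages that match its seed (bases 2 to 8), while the other arm is mostly degraded. The miR-26 hairpins lie in introns of a family of genes for small phosphatases that act on the C-terminal domain of RNA polymerase II, and microRNA and host are transcribed together. In liver, miR-26a is known as a guide whose level is lower in hepatocellular carcinoma than in surrounding tissue, which represses cyclins and the histone methyltransferase EZH2, and which raises insulin sensitivity in mice.

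In the GENCODE M21 annotation, matched by gene name, Mir26a-1 lies in intron 5 of Ctdspl on chromosome 9, Mir26a-2 in intron 5 of Ctdsp2 on chromosome 10, and Mir26b in intron 4 of Ctdsp1 on chromosome 1, each in the orientation of its host and counted on the principal transcript. In the deposited mm9 coordinates, miR-26a-5p stands at 118940929 to 118940950 on chromosome 9 and at 126432599 to 126432620 on chromosome 10. miR-26b-5p stands at 74440898 to 74440918 on chromosome 1. No other name of the table overlapped any of the 6 loci.

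The mature sequences are shown because seed sharing divides the family into its roles. They come from RefSeq (GRCm38.p6), 5′ to 3′, with the seed in capitals.
miR-26a-5p: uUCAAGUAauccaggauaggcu
miR-26b-5p: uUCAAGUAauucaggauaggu
miR-26a-2-3p: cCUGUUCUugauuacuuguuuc
miR-26b-3p: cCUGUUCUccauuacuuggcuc
miR-26a-1-3p: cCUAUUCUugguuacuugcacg

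Both 5p arms carried the seed UCAAGUA, and no other mature name of the RefSeq table did. Counted from 1 at the 5′ end of miR-26a-5p, miR-26b-5p differed by C11U and C21U over the 21 shared positions, outside the seed, and was 1 base shorter. The 3p arms were less alike. miR-26a-2-3p and miR-26b-3p shared the seed CUGUUCU and differed at 4 of 22 positions, while miR-26a-1-3p differed from miR-26a-2-3p at 6, of which G4A fell in the seed. The seed of miR-26a-2-3p and miR-26b-3p was also that of miR-6932-3p and miR-7039-3p, which had 7 and 0 counts over all livers. Both 5p arms began with U and all 3p arms with C. Over the 101 hairpins with both arms tested and both sequences in the RefSeq table, the more abundant arm began with U and the rarer with C in 19.8%.

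The hairpins are shown because they decide which reads can be told apart, with the mature arms in capitals.
Mir26a-1: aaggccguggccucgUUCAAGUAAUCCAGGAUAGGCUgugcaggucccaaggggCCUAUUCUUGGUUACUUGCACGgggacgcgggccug
Mir26a-2: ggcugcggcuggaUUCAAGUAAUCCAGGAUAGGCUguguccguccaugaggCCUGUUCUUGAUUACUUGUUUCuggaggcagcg
Mir26b: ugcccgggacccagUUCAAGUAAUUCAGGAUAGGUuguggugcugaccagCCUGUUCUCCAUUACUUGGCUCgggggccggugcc

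Mir26a-1 and Mir26a-2 yield the identical miR-26a-5p, and their hairpins also shared the 3 bases after it but none before it. A read of the mature 5p arm thus names no hairpin, whereas the 3p arms do.

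Libraries held between 2953955 and 5516430 counts, at which 3 counts correspond to between 0.544 and 1.02 CPM, the count relative to a library's total; this floor covers counting error only. Levels below are CPM after edgeR's TMM scaling, a trimmed mean over names. The 4 hepatocyte markers, miR-122-5p, miR-192-5p, miR-194-5p and miR-148a-3p, made up 43.8% to 54.8% of all counts. Summed endothelial markers lay between 21232 and 28894 CPM and the 5 stellate cell, fibroblast and smooth muscle markers between 10001 and 17325 CPM, so whole-liver levels include other cells, and fewer cells of a type cannot be told apart from less RNA per cell. Male 1 stood farthest from the others of its sex, with a median absolute log2 deviation of 0.345 over all tested names, followed by male 6 (0.309), where the remaining livers lay between 0.150 and 0.232. Even the closest pair within a sex, female 4 and 5, differed beyond sampling noise, with a chi-square over its degrees of freedom of 18.5.

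The family was abundant in every liver, and nearly all of it was the 2 guides. Together the 5 names took 2.77 ± 0.185% of counts (SD, n = 12), from 2.42% in male 3 to 3.09% in male 1. miR-26a-5p held 78.5% of the family's counts and miR-26b-5p 21.3%, whereas the 3p arms held 0.0778% (miR-26b-3p), 0.0484% (miR-26a-2-3p) and 0.00188% (miR-26a-1-3p). By mean CPM miR-26a-5p was number 10 of the 1906 names and miR-26b-5p number 24, while miR-26b-3p was 234, miR-26a-2-3p 274 and miR-26a-1-3p 577. Above miR-26a-5p stood both miR-126a-3p and miR-126b-5p, with means of 22638.9 and 22639.3 CPM. Some reads thus appear to stand under 2 names, and ranks, name counts and library totals include both. Shares of counts are taken of these totals. Ligation in small RNA libraries favours some sequences over others, and its part in differences between names was not tested.

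Neighbours in the order of levels did not separate from the guides in every liver. miR-126a-3p, an endothelial microRNA, stood just above miR-26a-5p at 22639 ± 2005 CPM (SD, n = 12) and was the higher of the 2 in 10 of 12 livers. Just below stood miR-30a-5p at 20702 ± 3979 CPM, although it exceeded miR-26a-5p in 7 of 12 livers. miR-29a-3p and miR-30e-5p framed miR-26b-5p, exceeding it in 5 and 4 of 12 livers. The 3p arms had neighbours as close: miR-199b-5p (22.0 CPM) and miR-326-3p (21.7 CPM) around miR-26b-3p, and miR-27b-5p (13.5 CPM) and miR-152-5p (13.3 CPM) around miR-26a-2-3p.

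miR-26a-5p, the dominant guide, ranged from 20144 CPM through a median of 22491 to 24218 CPM in the 6 males. In the 6 females it ranged from 19931 through 21357 to 22770 CPM. The sexes overlapped, with 2 males above every female and 2 females below every male, and the highest liver of all, male 1, exceeded the lowest, female 1, by 1.22-fold. Means were 22213 ± 1691 CPM and 21215 ± 1058 CPM (SD, n = 6 each). The log2 fold change of male over female was 0.07 with a standard error of 0.06 and a 95% interval of -0.06 to 0.19, which reaches from 1.04-fold lower to 1.14-fold higher in males (edgeR's quasi-likelihood test, adjusted p = 0.478). It was 0.029 without male 1 and 0.042 without male 2.

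miR-26b-5p, the second guide, ranged from 5302 through 6149 to 6478 CPM in males and from 5393 through 5768 to 6074 CPM in females. Here 4 of 6 males lay above every female, but male 1, the highest liver for miR-26a-5p, was the lowest of all 12. Means were 6062 ± 423 CPM and 5727 ± 237 CPM (SD, n = 6 each), a log2 fold change of 0.08 with a 95% interval of -0.04 to 0.20 (edgeR, adjusted p = 0.351). Without male 1 it was 0.11, with an unadjusted edgeR p of 0.0432, and again not called.

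**Figure D1:**
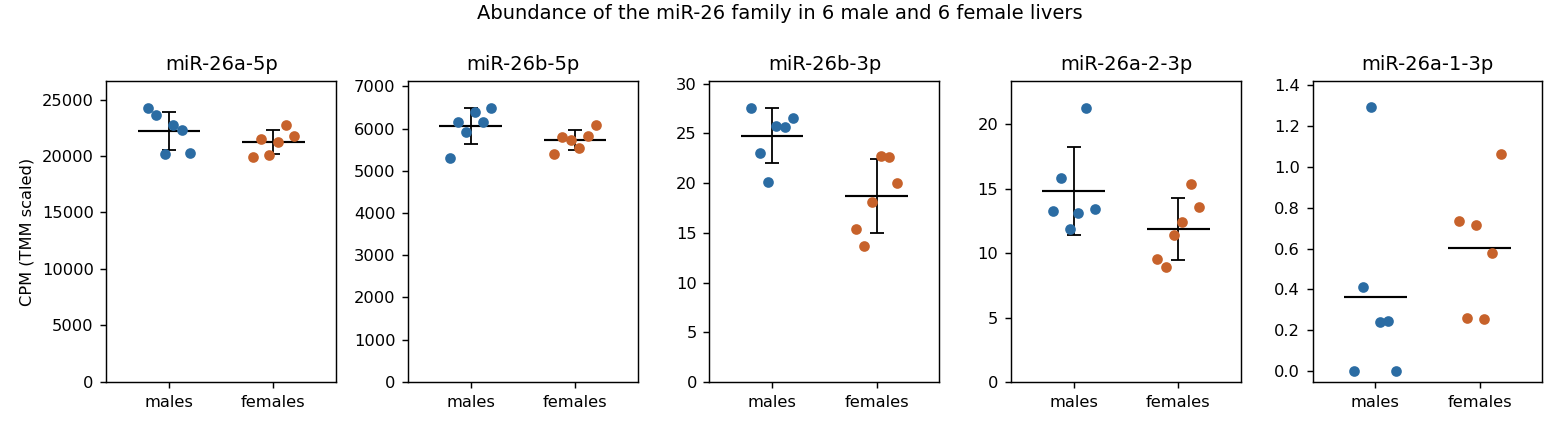
CPM (TMM scaled) of the 5 family members in each of 6 male and 6 female livers; points are livers, ordered by replicate number, lines are means and bars SD (none for miR-26a-1-3p, which has 0 to 6 counts a liver). The sexes overlap in every panel, least for miR-26b-3p, where 5 of 6 males lie above every female.

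No 3p arm passed the test either. miR-26b-3p, the most abundant of them, ranged from 20.1 through 25.7 to 27.5 CPM in males and from 13.7 through 19.0 to 22.7 CPM in females. All but 1 male lay above every female, male 3 being the exception. Means were 24.8 ± 2.73 CPM and 18.7 ± 3.73 CPM (SD, n = 6 each), a log2 fold change of 0.40 with a standard error of 0.15 and a 95% interval of 0.09 to 0.71, or 1.32-fold (edgeR, unadjusted p = 0.0163, adjusted p = 0.0766). Each liver supplied only 52 to 113 counts of it.

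miR-26a-2-3p, the 3p arm read from the Ctdsp2 intron, ranged from 11.9 through 13.4 to 21.2 CPM in males and from 8.94 through 11.9 to 15.4 CPM in females. The highest male, male 5, stood apart from the next at 15.8 CPM, and only 2 males lay above every female. Its log2 fold change was 0.32 with a 95% interval of -0.07 to 0.71 (edgeR, adjusted p = 0.268), and 0.18 without male 5. miR-26a-1-3p, from the Ctdspl intron, was near the floor, with 25 counts in all. The males gave 9 counts, with male 1 and male 6 at 0, and the females 16, for exact Poisson intervals of 4.12 to 17.1 and 9.15 to 26.0, which cover counting error only. It did not pass the filter on low counts and was not tested. That filter requires a minimum in at least as many livers, of either sex, as 1 sex holds. With names of at least 1 count kept, its edgeR log2 fold change was -0.61 (adjusted p = 0.609), and DESeq2 gave -0.67 (adjusted p = 0.728).

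Of the 4 members that passed this filter, edgeR called 0 at an adjusted p under 0.05, where it called 71 of all 419 tested names, or 16.9%. DESeq2 called 0 of the 5, where it called 81 of the 1292 names with at least 1 count. At an unadjusted p under 0.05 edgeR gave 1 member, miR-26b-3p, against 29.4% of all tested names. In 0 of the 4 were the sexes without overlap, against 8.11% of all tested names. All 4 had a positive log2 fold change, with a median of 0.20, where the median of all tested names was -0.02. In the authors' deposited table, which tests each locus, the log2 fold changes of male over female were 0.12 and 0.08 for the copies of miR-26a-5p on chromosomes 9 and 10, 0.12 for miR-26b-5p, 0.43 for miR-26b-3p (FDR 0.317), 0.36 for miR-26a-2-3p (FDR 0.953) and -0.61 for miR-26a-1-3p (FDR 1).

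The guides were steady between livers of a sex. The SD of log2 CPM within a sex was 0.09 for miR-26a-5p and 0.08 for miR-26b-5p, smaller than in all but 19 and 12 of the 419 tested names. Among the 53 names with a mean of at least 1000 CPM, 12 and 8 had a smaller SD, and the median was 0.13. The rare arms, with few counts, had SDs of 0.24 (miR-26b-3p) and 0.29 (miR-26a-2-3p), the latter the median of all tested names.

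**Figure D2:**
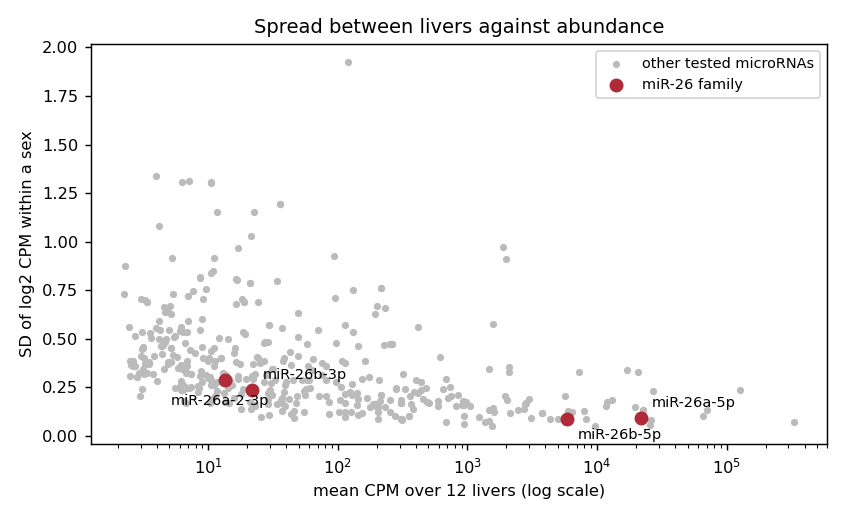
SD of log2 CPM between livers within a sex against mean CPM (log scale) for the 419 tested microRNAs, with the 4 tested family members in red. The guides miR-26a-5p (0.09) and miR-26b-5p (0.08) lie at the lower edge of the cloud, and the 3p arms lie inside it.

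The direction for the guides depended on how libraries were scaled. When counts were divided by library totals alone, the log2 fold change was -0.038 for miR-26a-5p (adjusted p = 0.721) and -0.026 for miR-26b-5p (adjusted p = 0.781), again by edgeR. That scaling moved the median of all tested names from -0.02 to -0.12, so both guides stayed above the median. It called 26 names higher in males and 58 higher in females, against 35 and 36 with TMM. The 3p arms kept a positive log2 fold change, 0.30 for miR-26b-3p and 0.21 for miR-26a-2-3p. As a share of all counts, the family made up 2.73 ± 0.229% in the male livers against 2.80 ± 0.143% in the female ones (SD, n = 6 each).

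**Figure D3:**
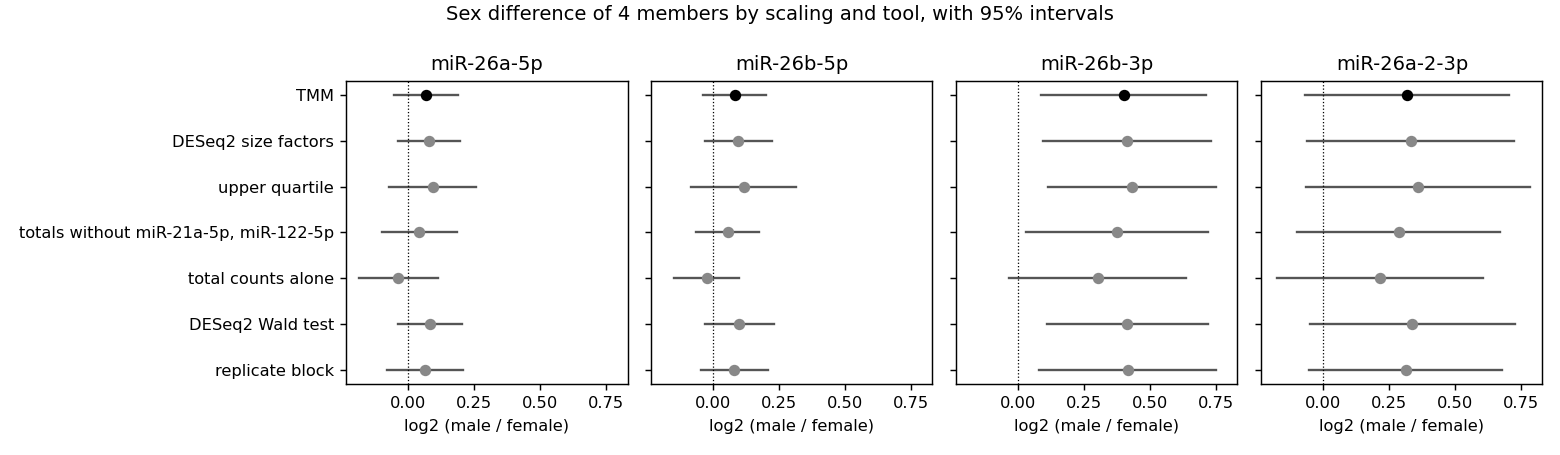
log2 fold change of male over female for the 4 tested members with 95% intervals, by scaling or tool. The guides change sign only where libraries are divided by total counts alone (-0.038 and -0.026), and the 2 3p arms stay above 0 in each of the 7 rows.

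Ratios within a liver do not depend on that scaling, and 6 were compared. All 924 ways to divide the livers were enumerated (exact permutation, two-sided), with p-values adjusted over the 6 by Benjamini and Hochberg. None passed after adjustment, and 2 had an unadjusted p under 0.05. Relative to miR-122-5p, the guide that dominates hepatocytes, miR-26a-5p stood at 6.23 to 7.42 per 100 counts in males (median 7.20) and 5.79 to 6.77 in females (median 6.07). The upper 4 males, male 1, 2, 4 and 5, lay above every female, whereas male 3 and male 6 lay among them. The mean log2 ratio was higher in males by 0.17 (exact permutation p = 0.0238, adjusted p = 0.11). In the edgeR fit with TMM the log2 fold change was -0.10 for miR-122-5p (adjusted p = 0.132) and 0.07 for miR-26a-5p, neither of them called. Both values depend on the scaling, and the part of each name in the ratio was not tested. With 1 liver left out, the adjusted permutation p of the ratio lay between 0.039 and 0.214. It passed without male 3 alone, at a difference of 0.20.

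The balance of the guides differed between the sexes by less than their spread: miR-26b-5p per miR-26a-5p was 0.275 ± 0.0338 in the male livers against 0.270 ± 0.0109 in the female ones (SD, n = 6 each; exact permutation p = 0.851, adjusted p = 0.851). The lowest value, 0.219, and the highest, 0.319, were both in males, male 1 and male 6, the livers farthest from the rest over all tested names. Females stayed between 0.256 and 0.285. The log2 difference, 0.016, was 0.079 without male 1 and turned negative without male 3, male 6 or female 5, to -0.029 at the lowest.

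Against its own guide, miR-26b-3p gave between 3.40 and 5.19 counts per 1000 of miR-26b-5p in males and between 2.36 and 4.10 in females. Medians were 4.07 and 3.22, and 3 males lay above every female. The mean log2 ratio was higher in males by 0.34 (exact permutation p = 0.0368, adjusted p = 0.11); it was 0.27 without male 1, which had the highest ratio. Tested alike, 22 of 124 hairpins with both arms past the filter, or 17.7%, had an exact permutation p under 0.05. A larger difference than that of Mir26b was found in 30 of them. Some enter under 2 names with the arms swapped, such as miR-299a and miR-299b. These counts take in shifts of either direction, and such shifts were thus common among these hairpins. The difference was positive, as for Mir26b, in 58 of the 124. The median difference over these hairpins was -0.03.

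The 3p arms of miR-26a gave 0.548 to 0.965 counts per 1000 of miR-26a-5p in males and 0.428 to 0.701 in females, a log2 difference of 0.22 (exact permutation p = 0.216, adjusted p = 0.325). It was 0.11 without male 5 and 0.13 without female 2. Over all livers they were 0.064% of the miR-26a counts (exact binomial 95% interval 0.0592% to 0.069%), and miR-26b-3p was 0.363% of the miR-26b counts (0.341% to 0.386%). These intervals pool the reads of all livers and cover counting error only. Single livers, by the ratios above, spread more widely. For the 124 hairpins whose 2 arms both passed the filter on low counts, the rarer arm held a median of 11.1%. Of these, 5 and 11 had a lower share than miR-26a and miR-26b. That filter leaves out hairpins with the rarest arms, and miR-26a is itself not among the 124. The shares are thus low against these hairpins only.

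**Figure D4:**
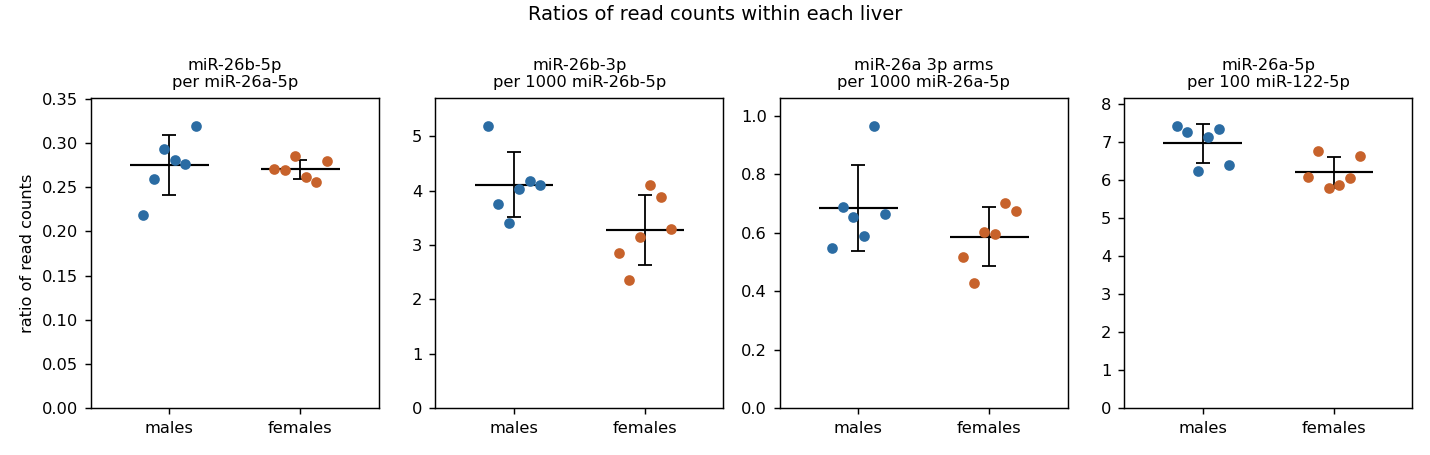
Ratios of read counts within each of 6 male and 6 female livers: miR-26b-5p per miR-26a-5p, miR-26b-3p per 1000 of its 5p arm, both miR-26a 3p arms per 1000 of miR-26a-5p, and miR-26a-5p per 100 of miR-122-5p. Points are livers, lines are means and bars SD; the first ratio ranges from 0.219 to 0.319 in males and from 0.256 to 0.285 in females, and the last has 4 males above every female.

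The 2 hairpins of miR-26a differed in the arm that tells them apart. Of 667 counts of their 3p arms, 25 were miR-26a-1-3p, or 3.75% (exact binomial 95% interval 2.44% to 5.48%, counting error only), and the remainder miR-26a-2-3p. How much of this reflects the amount of each hairpin and how much the stability of each arm was not tested. The log2 ratio of miR-26a-1-3p to miR-26a-2-3p differed by -1.15, male minus female (exact permutation p = 0.0736, adjusted p = 0.147), with 0.5 added to each count, and by -0.41 with 5 added. Male 3 alone held 5 of the 9 male counts, and without it the difference was -1.60 (adjusted p = 0.039); with 0 to 6 counts a liver this ratio carries little information.

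The deposited counts of miR-26a-5p were divided almost evenly between its copies, 521094 on chromosome 9 and 520725 on chromosome 10, or 50.0% at the former. Per liver the chromosome 9 copy took between 47.3% (female 3) and 51.6% (female 1), more than the other copy in 5 livers, and for 0 of the 12 livers did the exact binomial 95% interval hold the pooled value. The chi-square per degree of freedom of this split was 66.8, against a median of 1.24 over the other 24 names with 2 copies of at least 300 counts each. Of these only miR-194-5p had a higher value. At a given spread of shares this measure grows with the counts, and most of these names had fewer counts than miR-26a-5p. The SD of the first copy's share between livers was 1.40 percentage points for miR-26a-5p. It was 1.59 for miR-103-3p, with fewer counts, and 0.66 for let-7f-5p, with more. The split of miR-26a-5p did not follow sex, with a log2 difference of 0.03 (exact permutation p = 0.639, adjusted p = 0.766), and of 0.0039 to 0.054 with 1 liver left out. Livers fell into groups: male 3, 4 and 5 and female 1 and 2 lay between 51.3% and 51.6%, and the other 7 between 47.3% and 49.6%. In the same 5 livers the first copy of miR-30c-5p took 49.8% to 50.4%, against 49.1% to 49.8% in the other 7. These ranges all but touched, at 49.80% and 49.79%. That of miR-103-3p took 51.0% to 52.1% against 47.4% to 51.0%, meeting at the edge, while miR-24-3p and let-7a-5p showed overlapping ranges. The names compared here were picked from the other 24 after their values were seen. How many of the 24 follow the groups was not counted. The summed level of miR-26a-5p spanned 19931 to 22707 CPM in those 5 livers and 20128 to 24218 CPM in the other 7. These groups are defined from the data and correspond to no label, and what sets them apart was not tested. A term for the groups in the edgeR fit gave miR-26b-3p a log2 fold change of 0.47 and an adjusted p of 0.0306. It called no other member, where it called 76 of 419 tested names. The term was chosen after the data were seen and was cut from a member's own counts, so this p-value cannot stand as a call.

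**Figure D5:**
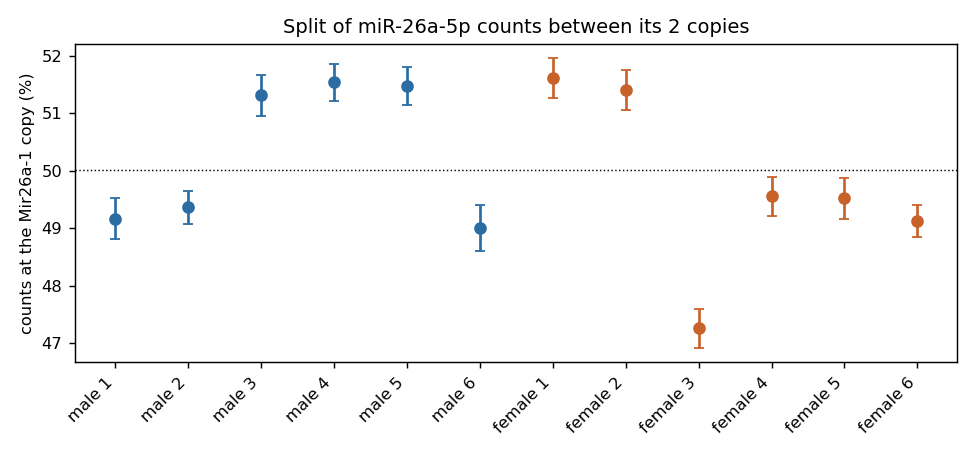
Share of miR-26a-5p counts assigned to the Mir26a-1 copy (%) in each liver with exact binomial 95% intervals, which cover counting error only; the dotted line is the pooled share of 50.0%, and the vertical axis does not start at 0. Livers of both sexes lie above (51.3% to 51.6%) and below (47.3% to 49.6%) the line.

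Across the 12 livers, with the mean of each sex subtracted, the members did not move together detectably. For miR-26a-5p and miR-26b-5p, log2 CPM gave a Pearson r of -0.18 (permutation p = 0.593) and a Spearman rho of 0.05 (permutation p = 0.886), and r was -0.08 without the 2 livers farthest from the median of miR-26a-5p, male 3 and male 6. For miR-26b-5p and miR-26b-3p, cut from the same hairpin, r was 0.05 (permutation p = 0.871) and rho 0.13 (permutation p = 0.682), and r was 0.16 without male 1 and female 1. miR-26a-1-3p and miR-26a-2-3p gave an r of 0.04 (permutation p = 0.909) and a rho of 0.10 (permutation p = 0.765), and an r of 0.33 without male 1 and male 3. miR-26a-5p and its summed 3p arms gave an r of 0.35 (permutation p = 0.257) and a rho of 0.35 (permutation p = 0.265), and an r of 0.24 without male 3 and male 6. Over these 4 relations the smallest adjusted p was 0.886. Values of a liver share a library and its scaling, and the narrow range of the guides limits any correlation.

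Among 149 other names with a mean of at least 100 CPM, those whose log2 CPM followed miR-26a-5p most closely over the 12 livers, sex means subtracted, were miR-378a-5p (Pearson r = 0.94, Spearman rho = 0.96), miR-29a-3p (0.82 and 0.78), miR-378c (0.81 and 0.81), miR-378d (0.79 and 0.76) and miR-139-5p (0.78 and 0.69). Their r values lay between 0.66 and 0.93 without the 2 livers farthest from the median of miR-26a-5p. The names closest to miR-26b-5p were miR-455-5p (r = 0.82, rho = 0.52), miR-32-5p (0.81 and 0.65), miR-31-5p (0.80 and 0.79), miR-140-5p (0.80 and 0.59) and miR-107-3p (0.77 and 0.75). Their r values fell to between 0.45 and 0.66 without male 1, and to between 0.18 and 0.53 without male 1 and female 1. Leaving out the livers farthest from the median also narrows the range, which can lower r by itself. These are descriptions of the highest among many values.

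Besides miR-26a, a list of 20 further microRNAs reported to be lost in liver cancer was counted. Of the 20, all of them tested, 4 rose and 1 fell in males and 15 did not pass, with a median log2 fold change of 0.09, against 8.35% of all tested names higher and 8.59% lower in males. Dividing by library totals alone gave a median of -0.011. Names of 1 family were counted separately, so the 4 that rose, which include the miR-29 names, are not independent. The 4 were miR-29a-3p (0.51, edgeR adjusted p = 0.000667), miR-29b-3p (0.64, adjusted p = 0.000398) and miR-29c-3p (0.50, adjusted p = 0.0143), which repress collagens, and miR-22-3p (0.31, adjusted p = 0.0216; 0.0535 without female 2). The 1 that fell was miR-34a-5p, a p53 target (-0.77, adjusted p = 0.0294), which no longer passed when male 2, male 3, male 5, female 2, female 5 or female 6 was left out (adjusted p of at most 0.0713). The most abundant of the list, miR-122-5p (-0.10, adjusted p = 0.132) and let-7g-5p (0.11, adjusted p = 0.154), were not called, as was the case for miR-26a-5p, and these 2 alone exceeded it in mean CPM.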

How the data were processed

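Small RNA libraries were prepared from total liver RNA with the NEBNext small RNA kit, which keeps strand, per the labels' protocols. Bowtie2, Trim Galore, edgeR, bedtools and the build mm9 appear in the submitters' processing notes with no version or setting, and the placement of reads with several equal positions is not stated there. The authors deposited raw read counts per mature locus and liver. Per the file headers, the table also holds the authors' edgeR log2 fold change of male over female, and its p-value and FDR.

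Counts of loci with the same name were summed. Names were filtered with filterByExpr, scaled by TMM and tested in R 4.3.3 with edgeR 4.0.16 (glmQLFit, glmQLFTest; sex only; Benjamini-Hochberg over all 419 tested names, threshold 0.05). Intervals used the standard error and the fit's degrees of freedom. Log2 CPM used a prior count of 2, and log2 count ratios had 0.5 added to each count. Permutation tests of ratios used full enumeration. Correlations were computed with scipy 1.17.1 and tested with 100000 random permutations. Alternatives were DESeq2 1.42.0, other scalings and filters, separate loci, thinning, a replicate block and leaving out each liver.

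The members, lists and rules were chosen with earlier results of these data known. Named are the members, their neighbours in abundance, names sharing the guide seed, the 5 names most like each guide among those of at least 100 CPM, and the called and the 2 most abundant members of the liver cancer list. miR-6932-3p, miR-7039-3p, miR-194-5p, miR-103-3p, miR-30c-5p, miR-24-3p, let-7a-5p, let-7f-5p, miR-126b-5p, miR-299a and miR-299b were chosen after their values were seen. Mature and hairpin sequences were matched by name in the RefSeq table for 1622 of the 1906 names.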

Additional observations from a re-analysis of the deposited data

How the results depend on the processing

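Apart from 1 fit added later, no other setting called a family member, and 87 of 89 log2 fold changes of members kept their direction; the exceptions were miR-26a-5p (-0.038) and miR-26b-5p (-0.026) under scaling by total counts alone, which lowers the median of all names as well. miR-26b-3p passed only with a term for the split of miR-26a-5p reads, chosen after the data were seen (0.47, edgeR adjusted p = 0.0306). As that term was cut from a member's own counts, its p-value cannot stand as a call. Leaving out each liver in turn gave adjusted p-values of 0.0557 to 0.147 for miR-26b-3p. With 1 liver left out, the number of names called different between the sexes lay between 47 (without male 3) and 82 (without male 1), against 71, and the log2 difference in the ratio of miR-26b-5p to miR-26a-5p lay between -0.029 and 0.079, that of miR-26a-1-3p to miR-26a-2-3p between -1.60 and -0.94, and that of miR-26a-5p to miR-122-5p between 0.15 and 0.20; the last 2 passed without male 3 alone. The r of miR-26a-5p with miR-26b-5p was 0.16 with total counts and 0.016 without subtracting sex means. That of miR-26a-1-3p with miR-26a-2-3p was -0.078 and -0.19. For miR-26b-5p with miR-26b-3p it was 0.28 and 0.35, and for miR-26a-5p with its summed 3p arms 0.34 and 0.46. The last of these had a rho of 0.62 (permutation p = 0.0353, adjusted p = 0.141). The causes were not tested. With names of at least 1 count kept, miR-26a-5p was at 0.11 and miR-26b-5p at 0.12; miR-26a-5p was at 0.041 with totals that leave out miR-21a-5p and miR-122-5p, and its chromosome 10 copy alone at 0.039.

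The replicate numbers pair nothing in the labels, and same-numbered livers deviated with correlations from -0.13 to 0.30, with 0 of 6 males closest to their own number. With the replicate block edgeR called 48 names and no member (miR-26b-3p 0.42, adjusted p = 0.115). Counts of 0 to 6 a liver for miR-26a-1-3p and 34 to 113 for the other 3p arms limit what depth can show.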
